A study of Mus musculus with 6 samples.

Results

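The genes described here are the core clock loop genes Clock, Per1, Per2, Per3, Nr1d1 and Nr1d2, the PAR bZIP genes Dbp, Tef and Hlf, and the related repressor gene Nfil3. They were chosen by name, and a gene was counted where the array held a probe set that names it alone. This gave 9 genes of the 10, among 20242 genes in all, and Per2 was dropped because its probe set also names a second gene. Values came from the livers of 6 male C57BL/6 mice on an Affymetrix exon array, as log2 values made with RMA, a method that summarises the probes of a probe set into 1 value. The 3 knockout mice, called Cpt2KO, carried floxed Cpt2 alleles and Albumin-Cre, with listed ages of 12 to 14 weeks. The 3 control mice, called WT, carried the same floxed alleles without Cre, with listed ages of 9 to 11 weeks. All 6 mice had been fasted for 24 hours, and the growth protocol gives 9 weeks for all of them. The albumin promoter acts in hepatocytes, the array measured whole liver, and no source used here gives the time of day at which livers were taken.

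The circadian clock is a feedback loop of transcription. CLOCK and its partner BMAL1, the product of Arntl, bind E-box sequences and switch on the Per and Cry genes, whose proteins return to block them. A second loop runs through the nuclear receptors REV-ERB alpha and beta, the products of Nr1d1 and Nr1d2, which repress Arntl at ROR elements. The loop drives Dbp, Tef and Hlf, whose proteins activate genes through D-box sequences and which in mouse liver control enzymes of detoxification, while NFIL3 represses through the same D-box. Fasting and feeding shift the rhythms of the liver. Whether the mice of both genotypes were sampled at the same time of day is not known here, so a difference in sampling time and a difference between genotypes cannot be told apart.

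The results turn on Per3, Hlf and Tef, so the sequences before their starts are shown, taken from the RefSeq promoter table of build GRCm38.p6. The deposited values name build mm9, so no position below is tied to a probe. Capitals mark the D-box TTATGTAA in Per3, the cAMP response element TGACGTCA in Hlf and the E-box CACGTG in Tef. The Per3 stretch stops at the outer end of the annotated gene, short of the start from which distances are counted below.
Per3, distal site, chr4:151044852-151044881, minus strand: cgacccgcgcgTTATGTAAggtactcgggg
Per3, chr4:151044708-151044852, minus strand: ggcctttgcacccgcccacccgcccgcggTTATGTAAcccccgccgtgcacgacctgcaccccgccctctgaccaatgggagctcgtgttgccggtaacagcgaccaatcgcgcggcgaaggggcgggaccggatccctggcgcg
Hlf, chr11:90390918-90391167, minus strand: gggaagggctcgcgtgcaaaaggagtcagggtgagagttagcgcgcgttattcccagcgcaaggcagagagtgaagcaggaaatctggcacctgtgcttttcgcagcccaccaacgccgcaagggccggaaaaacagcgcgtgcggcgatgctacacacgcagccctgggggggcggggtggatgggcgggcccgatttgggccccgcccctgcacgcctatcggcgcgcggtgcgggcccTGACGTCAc
Tef, chr15:81802423-81802672, plus strand: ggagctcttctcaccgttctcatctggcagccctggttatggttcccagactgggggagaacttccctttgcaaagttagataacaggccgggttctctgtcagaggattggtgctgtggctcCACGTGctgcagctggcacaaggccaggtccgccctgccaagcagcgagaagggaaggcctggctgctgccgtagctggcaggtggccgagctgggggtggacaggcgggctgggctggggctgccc
RefSeq places the predicted gene Gm38529 over the distal Per3 site and the long noncoding RNA gene Gm17597 over the Tef window.

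In the Cpt2KO livers Per3, Tef and Hlf fell, by 0.75 to 0.97 on the log2 scale, and 0 members rose at an adjusted p under 0.05 by limma. Of the 9 members 3 fell, where 3.49% of all genes fell, and 0 rose, where 4.74% of all genes rose. In either direction 8.24% of all genes changed. The members were chosen with earlier results of these data known, so these shares are a description without a test. At an unadjusted p under 0.05, 2 members were higher, Nr1d1 and Nr1d2. In either direction 5 of the 9 members lay under it, where 4083 of the 20242 genes did. By role, 1 of 5 core loop genes fell (Per3), 2 of 3 PAR bZIP genes fell (Tef and Hlf), and Nfil3 did not pass. The median difference was 0.19 over the 5 core loop genes and -0.75 over the 3 PAR bZIP genes, against -0.0084 over all genes. Adjusted p-values are from limma's moderated test, with the Benjamini-Hochberg correction across the 20242 genes tested, except where another setting is named. They weigh a difference against the spread between mice within the groups, moderated by the spread seen over all genes. In this bulk tissue, fewer cells of a type and less RNA per cell cannot be told apart.

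**Figure D1:**
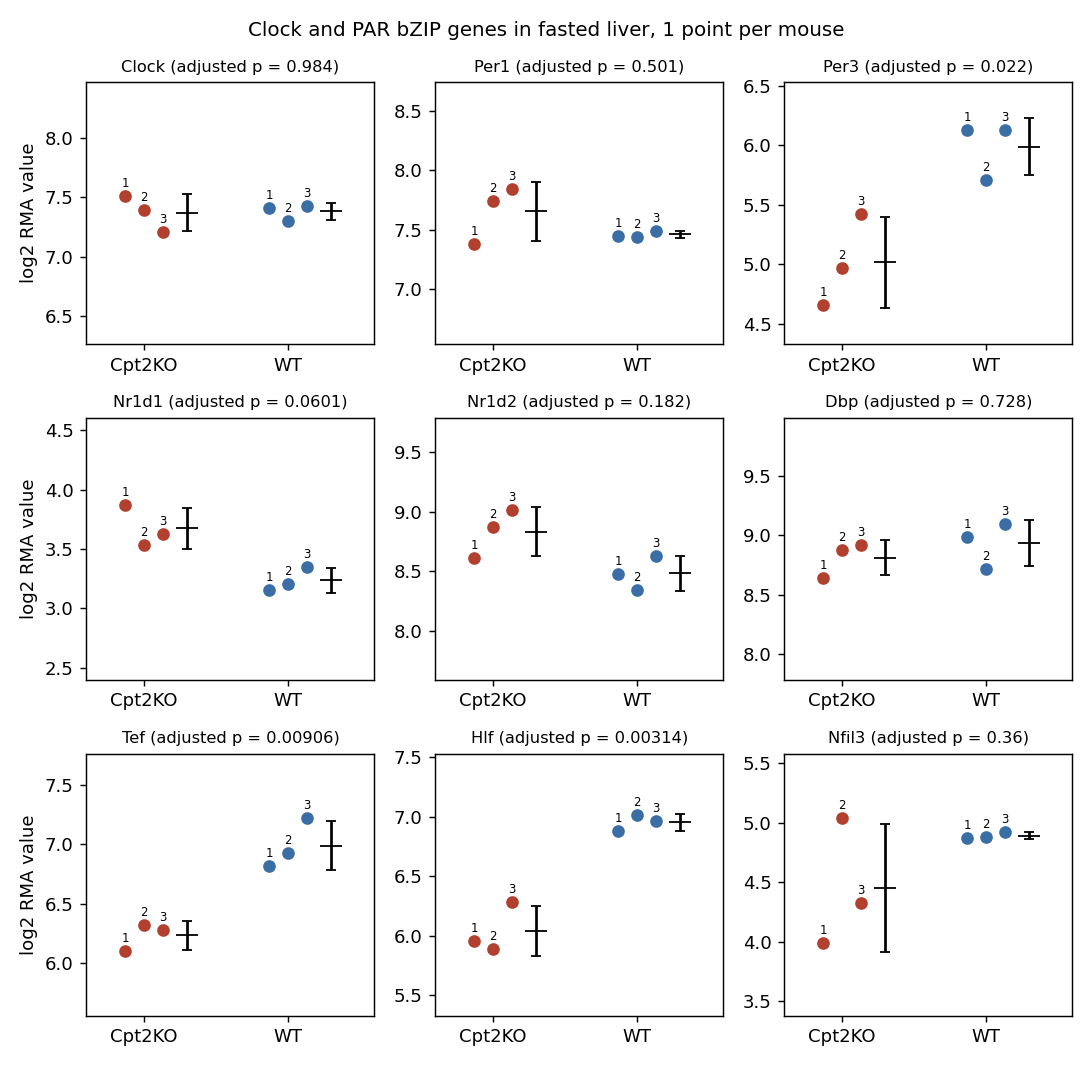
Log2 RMA value (vertical axis) of each of the 9 genes in each mouse, Cpt2KO left and WT right; numbers are replicate numbers, bars show mean and SD of 3 mice, and every panel spans the same log2 range. The 3 Cpt2KO values lie below the 3 WT values for Per3, Tef and Hlf, and above them for Nr1d1.

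Clock, the DNA-binding activator of the loop, had log2 values of 7.51, 7.40 and 7.21 in Cpt2KO livers, against 7.41, 7.30 and 7.43 in WT livers. The 2 sets of values were interleaved. The difference was -0.0089 (95% interval -0.26 to 0.24, adjusted p = 0.984 by limma), and its sign depended on the setting. A second Clock probe set, which did not stand for the gene, gave 7.02, 6.75 and 6.83 in Cpt2KO livers, against 6.77, 6.79 and 6.71 in WT livers.

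Among the period genes, whose proteins repress CLOCK and BMAL1, Per3 fell and Per1 did not pass, while Per2 was not tested alone. The log2 values of Per3 were 4.66, 4.97 and 5.43 in Cpt2KO livers, against 6.13, 5.71 and 6.13 in WT livers, with every Cpt2KO mouse below every WT mouse. Cpt2KO livers averaged 5.02 ± 0.38 and WT livers 5.99 ± 0.24 (SD, n = 3 each). Per3 was thus 1.96-fold lower (difference -0.97, SE 0.20, adjusted p = 0.0220 by limma). The call was lost in 4 of the 6 fits that left out a mouse, with an adjusted p by limma of 0.0731 without WT replicate 1, 0.0766 without WT replicate 3, 0.0539 without Cpt2KO replicate 1 and 0.0717 without Cpt2KO replicate 2. It was also lost with arrays centred on their medians (adjusted p = 0.0504 by limma).

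Per1, the period gene that answers most directly to glucocorticoid and cAMP signals, had overlapping groups. It had 7.38, 7.74 and 7.85 in Cpt2KO livers, against 7.45, 7.44 and 7.49 in WT livers, so that 2 Cpt2KO mice lay above the WT mice and 1 below. Its difference was 0.19 (95% interval -0.11 to 0.50, adjusted p = 0.501 by limma). The difference for Per3 minus that for Per1 was -1.17, with groups that did not overlap. This pair was picked with both values known, so the value is a description without a test. The probe set shared by Per2 and 9830107B12Rik was not counted. It had 5.59, 5.62 and 6.06 in Cpt2KO livers, against 6.17, 6.27 and 6.34 in WT livers, with every Cpt2KO mouse below every WT mouse. Its difference was -0.50 (unadjusted p = 0.0257 and adjusted p = 0.462 by limma over all 115050 probe sets), and the share of each gene in it is unknown.

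The REV-ERB genes Nr1d1 and Nr1d2, repressors of Arntl, had higher means in Cpt2KO livers without passing the test. Nr1d1 was read at a dim probe set, at percentile 35.0 of mean level over all genes. It had 3.87, 3.53 and 3.63 in Cpt2KO livers, against 3.15, 3.21 and 3.35 in WT livers, with no overlap between the groups. Its difference was 0.44 (95% interval 0.17 to 0.71 for this gene alone), and its adjusted p of 0.0601 by limma lay above the threshold. With quantile normalization, with array weights and after dropping genes in the lowest 25% by level it passed (adjusted p = 0.0467, 0.0447 and 0.0443 by limma). With Nr1d1 counted, the groups did not overlap in 4 of the 9 members, where this held for 25.1% of all genes. The 3' end of Nr1d1 overlaps Thra in the RefSeq table, and the probe set naming both genes had 8.66, 8.59 and 8.39 in Cpt2KO livers, against 7.96, 7.95 and 8.48 in WT livers.

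Nr1d2 had 8.61, 8.87 and 9.02 in Cpt2KO livers, against 8.48, 8.34 and 8.63 in WT livers. The lowest Cpt2KO mouse fell just under the highest WT mouse. The difference was 0.35 (95% interval 0.045 to 0.65 for this gene alone, adjusted p = 0.182 by limma). The other Nr1d2 probe set gave 4.42, 4.51 and 4.59 in Cpt2KO livers, against 4.30, 4.37 and 4.61 in WT livers.

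Of the PAR bZIP genes, Hlf fell most. Its log2 values were 5.96, 5.89 and 6.28 in Cpt2KO livers, against 6.88, 7.02 and 6.97 in WT livers, and the groups were far apart relative to their spread. Cpt2KO livers averaged 6.04 ± 0.21 and WT livers 6.95 ± 0.07 (SD, n = 3 each). Hlf was 1.88-fold lower (difference -0.91, SE 0.12, adjusted p = 0.00314 by limma).

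Tef, a close relative of Hlf with the same PAR and bZIP domains, had 6.10, 6.33 and 6.28 in Cpt2KO livers, against 6.82, 6.93 and 7.22 in WT livers. The means were 6.23 ± 0.12 in Cpt2KO livers and 6.99 ± 0.21 in WT livers (SD, n = 3 each), again without overlap. Tef was 1.69-fold lower (difference -0.75, SE 0.13, adjusted p = 0.00906 by limma). With any 1 mouse left out, Hlf and Tef still passed in all 6 fits, with an adjusted p by limma of at most 0.0166 for Hlf and 0.0336 for Tef.

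Dbp, the PAR bZIP gene with the best known daily rhythm in liver, did not pass. It had 8.64, 8.88 and 8.92 in Cpt2KO livers, against 8.99, 8.72 and 9.10 in WT livers. The groups overlapped, and the difference was -0.12 (95% interval -0.42 to 0.18, adjusted p = 0.728 by limma). The difference for Hlf minus that for Dbp was -0.79 and that for Tef minus that for Dbp was -0.63. In both the groups did not overlap. These pairs too were picked with the values known and were not tested, so a different response of Dbp is not shown.

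Nfil3, the D-box repressor, differed more among the Cpt2KO mice than any other member did. Its values were 3.99, 5.04 and 4.32 in Cpt2KO livers, against 4.87, 4.88 and 4.92 in WT livers, so that Cpt2KO replicate 2 lay above the WT mice and replicates 1 and 3 below them. The difference was -0.44 (95% interval -0.97 to 0.09, adjusted p = 0.360 by limma). Without Cpt2KO replicate 2 it was -0.73 (adjusted p = 0.0194 by limma).

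These values differed between single mice, and listed age cannot be told apart from genotype. Cpt2KO replicate 3 had the highest value of its group in 5 of the 9 members and WT replicate 3 in 7 of 9. Listed ages were 9, 10 and 11 weeks for WT replicates 1, 2 and 3 and 12, 13 and 14 weeks for Cpt2KO replicates 1, 2 and 3. They thus follow the sample order and separate the genotypes completely. With listed age as a covariate 0 members passed by limma (3 at an unadjusted p under 0.05, Per3, Tef and Hlf). The differences were then larger in size, at -1.54 for Per3, -1.19 for Tef and -1.22 for Hlf (adjusted p = 0.180, 0.0887 and 0.110 by limma). An effect of age was not tested.

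**Figure D2:**
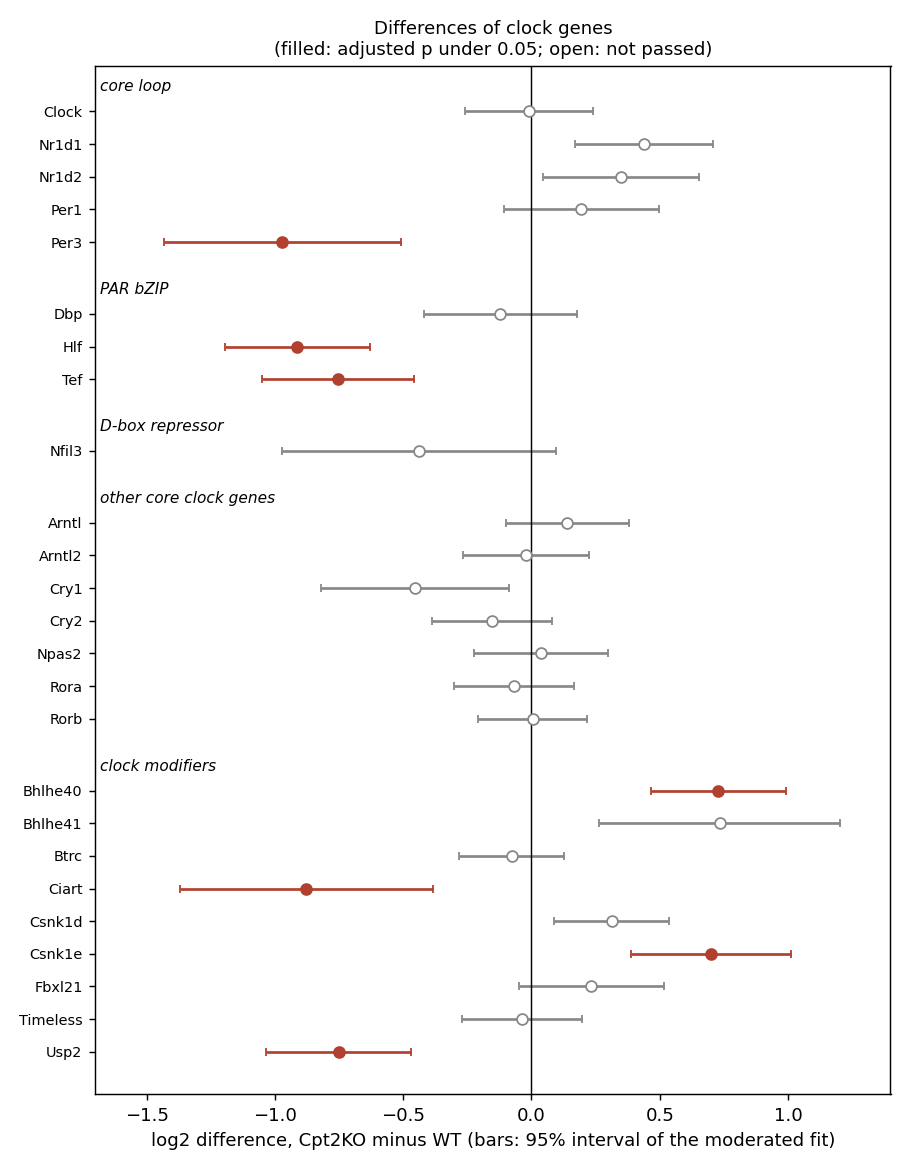
Log2 difference, Cpt2KO minus WT (horizontal axis), with its 95% interval for each gene alone, for members, other core clock genes and clock modifiers; filled points have an adjusted p under 0.05 by limma. Per3, Hlf, Tef, Ciart and Usp2 lie below 0 and Bhlhe40 and Csnk1e above it, while the 7 other core clock genes have open points.

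The partners of these genes in the loops that are described here were Arntl, Arntl2, Npas2, Cry1, Cry2, Rora and Rorb. Of these 7 genes, 0 passed the test by limma, where 8.24% of all genes passed. At an unadjusted p under 0.05 there was 1, where 4083 of the 20242 genes lay under it. Arntl, the gene of CLOCK's partner, differed by 0.14, Npas2, a stand-in for Clock, by 0.038, and Arntl2 by -0.021. The cryptochrome genes Cry1 and Cry2, corepressors with the period proteins, differed by -0.45 (adjusted p = 0.148 by limma) and -0.15. Cry1 had the unadjusted p under 0.05, and its groups overlapped, with 4.21, 4.23 and 4.58 in Cpt2KO livers, against 4.83, 5.03 and 4.51 in WT livers. The ROR receptor genes Rora and Rorb, activators at the elements that REV-ERB represses, differed by -0.068 and 0.0045. The list's median was -0.021.

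Genes that modify the loop changed in both directions, 2 up and 2 down of 9 measured, with a median of 0.23. Over all genes 4.74% rose and 3.49% fell. At an unadjusted p under 0.05 by limma there were 6 of the 9, where 4083 of the 20242 genes lay under it. The groups did not overlap in 7 of the 9, where this held for 25.1% of all genes. Csnk1e, a kinase that marks period proteins for degradation, had 6.87, 6.88 and 6.91 in Cpt2KO livers, against 6.26, 5.89 and 6.40 in WT livers (difference 0.70, adjusted p = 0.0163 by limma). Bhlhe40, a repressor at E-boxes, had 7.50, 7.36 and 7.33 in Cpt2KO livers, against 6.57, 6.57 and 6.86 in WT livers (difference 0.73, adjusted p = 0.00631 by limma). In both genes every Cpt2KO mouse lay above every WT mouse. Csnk1e had an adjusted p by limma of 0.0513 without Cpt2KO replicate 2 and 0.0564 without Cpt2KO replicate 3.

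The deubiquitinase gene Usp2, a rhythmic gene in liver, had 5.62, 5.70 and 5.98 in Cpt2KO livers, against 6.39, 6.60 and 6.55 in WT livers (difference -0.75, adjusted p = 0.00759 by limma). Ciart, which encodes a repressor of CLOCK and BMAL1, had 6.66, 6.67 and 7.48 in Cpt2KO livers, against 7.91, 7.89 and 7.64 in WT livers (difference -0.88, adjusted p = 0.0431 by limma). Cpt2KO replicate 3 came close to the WT mice in Ciart. Its call was lost in 5 of the 6 fits that left out a mouse, passing only without Cpt2KO replicate 3.

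Of the genes known to depend on PAR bZIP proteins or D-boxes, 5 of 8 listed were measured, with a median of -0.39. Of the 5, 4 were below 0 and 1 above. At an unadjusted p under 0.05 by limma there were 3, where 4083 of the 20242 genes lay under it. Where 3.49% of all genes fell, 1 of these 5 did. It was Cyp7a1, whose enzyme takes the first step from cholesterol to bile acids, at 5.17, 4.49 and 5.96 in Cpt2KO livers, against 9.33, 9.21 and 9.12 in WT livers (difference -4.01, adjusted p = 0.000255 by limma). It had the largest decrease of all genes tested, and many other regulators act on it. In the list of rhythmic liver genes, 2 rose and 1 fell of 10 measured, where 4.74% of all genes rose and 3.49% fell. Insig2, which holds back sterol regulatory proteins, rose by 0.99 and the liver glycogen synthase gene Gys2 by 0.79 (adjusted p = 0.00922 and 0.0108 by limma). The uridine phosphorylase gene Upp2 fell by 1.48 (adjusted p = 0.00884 by limma). The list includes Noct, which the annotation gives to 81 probe sets, so its value is uncertain, and without Noct the counts were again 2 and 1, of 9.

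Genes that answer to cues which also reach the period genes were counted as well. Over all genes 4.74% rose and 3.49% fell, and no list was tested as a set. Of 7 glucocorticoid targets, 1 fell, Tsc22d3, with 5.07, 5.05 and 5.69 in Cpt2KO livers, against 6.75, 7.12 and 6.23 in WT livers (difference -1.43, adjusted p = 0.00958 by limma), and the list's median was -0.091, with 2 members above 0 and 5 below. Of 6 targets of the cAMP-responsive factor CREB, 1 rose, the nuclear receptor gene Nr4a1 (difference 0.52, adjusted p = 0.0481 by limma), and the median was 0.25, with 5 members above 0 and 1 below. With a mouse left out, Nr4a1 kept its call in 1 fit of 6, that without Cpt2KO replicate 1. Of 6 measured heat shock genes, 1 rose, the small heat shock protein gene Hspb1 (difference 2.05, adjusted p = 0.000431 by limma), and the median was 0.13, with 4 members above 0 and 2 below.

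**Figure D3:**
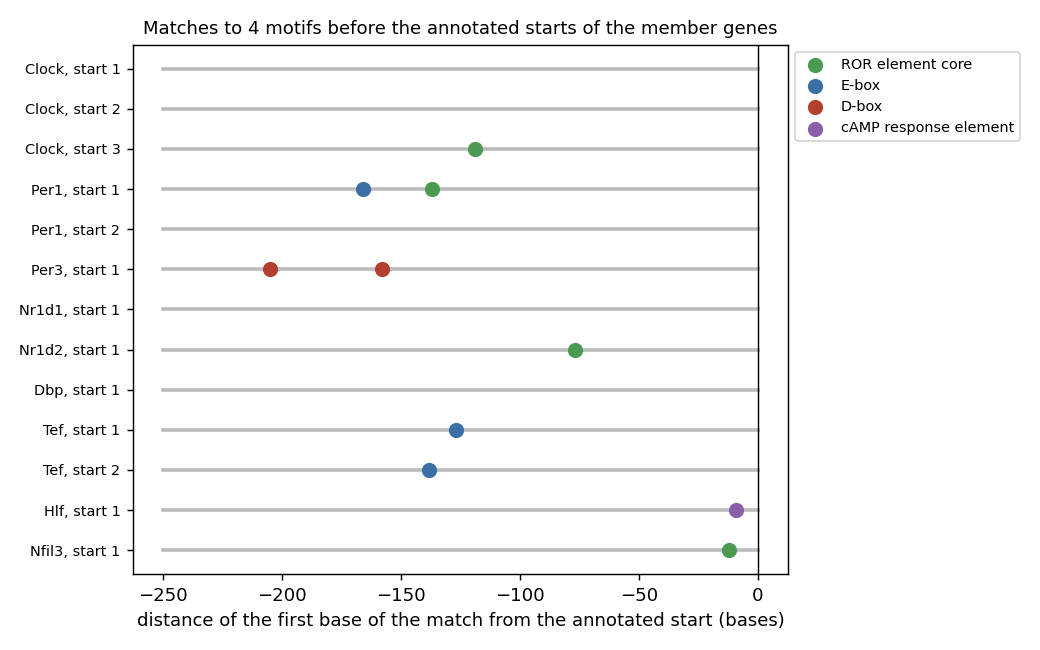
Matches to 4 motifs in the 250 bases before each of the 13 annotated starts of the 9 genes; the horizontal axis is the distance in bases of a match's first base from the start. Per3 has both D-box matches, Tef an E-box at each start and Hlf a cAMP response element next to its start.

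The 250 bases before each start were searched on both strands for the E-box CACGTG, the D-boxes TTATGTAA and TTACGTAA, the ROR element core AGGTCA and the cAMP response element TGACGTCA. The 9 genes had 13 annotated starts in the table. The D-box TTATGTAA was present before Per3 at -205 and -158, both on the gene's own strand, and before 0 of the other starts. It is present before 0.819% of all 32851 starts in the table, and at least 2 times before 6 of them. The E-box was present before both Tef starts, at -127 and -138, and before 1 Per1 start, at -166, against 6.02% of all starts. The cAMP response element lies before Hlf at -9, against 1.55% of all starts. The ROR core was present once each before Clock, Per1, Nr1d2 and Nfil3, against 14.0% of all starts, and TTACGTAA before 0 of the 13, against 0.113% of all starts. Dbp and Nr1d1 held no match in this window. No matches overlapped each other. The motifs were chosen with the gene values known, and a match describes letters, not binding.

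The label of the knockout held in every mouse. Cpt2, the mitochondrial enzyme of acylcarnitine conversion, had 6.48, 6.73 and 6.75 in Cpt2KO livers, against 7.56, 7.72 and 7.63 in WT livers, and whether its probe set covers the deleted part is not given. Over all genes 3.49% fell and 4.74% rose, and 4083 of 20242 had an unadjusted p under 0.05. Hepatocyte markers were present at high levels, and 3 of 6 measured fell, Alb (-0.69), Ttr (-0.51) and F2 (-0.54). All 6 were below 0, and 4 had an unadjusted p under 0.05. The mean log2 level of these 6 markers ran from 9.65 to 9.82 in Cpt2KO livers and from 10.07 to 10.18 in WT livers. Of 7 Kupffer cell markers 1 fell (Marco, -0.52). All 7 were below 0, 5 of them at an unadjusted p under 0.05 and 5 without overlap between the groups, which 25.1% of all genes lacked. Their mean level was 6.00 to 6.20 in Cpt2KO livers and 6.19 to 6.68 in WT livers. Of 5 endothelial markers 1 rose (Lyve1, 0.92). The median over the 5 was 0.028, with 3 above 0 and 2 below. Their mean level was 7.08 to 7.26 in Cpt2KO livers and 6.96 to 7.08 in WT livers. None of the 17 measured stellate cell, cholangiocyte, T cell, B cell and neutrophil markers passed by limma (1 at an unadjusted p under 0.05). The part of these marker differences in the results for Per3, Tef and Hlf was not tested.

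**Figure D4:**
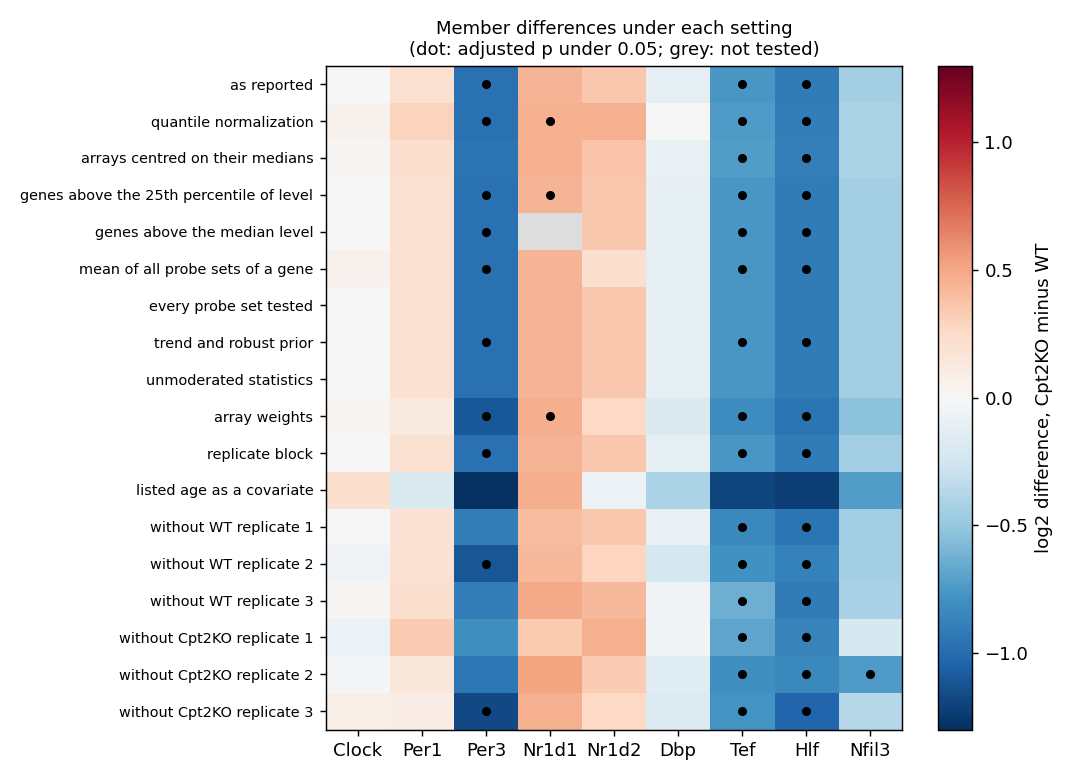
Log2 difference, Cpt2KO minus WT (colour), of the 9 genes (columns) under each processing setting (rows); a dot marks an adjusted p under 0.05 by limma and grey a gene that was filtered out. Hlf and Tef carry dots in the same settings, and Per3 loses them also when arrays are centred or certain mice are left out.

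Across 17 alternative settings, Per3, Tef, Hlf, Dbp and Nfil3 were below 0 in every one. Hlf and Tef passed in 14 of them and Per3 in 9. Each failed in the same 3: fit and adjustment over all 115050 probe sets, statistics without moderation, and the covariate of listed age. The fit over all probe sets also changed the variance estimate, with an SE for Hlf of 0.16 against 0.12 as reported.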

How the data were processed

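Liver RNA from 3 Cpt2KO and 3 WT mice was hybridised to 1 array each. The authors deposited log2 values, 1 for each of 115050 probe sets, made with Partek and RMA on build mm9 per the submitters' processing notes, without versions. RMA compresses changes of dim probe sets. Scanner files were not analysed here, so no value is called above or below background, and the number of arrays limits the precision. A platform annotation named 25469 probe sets with 1 gene and 2286 with several. Each of 20242 genes was read at its brightest single-gene probe set by mean level, without a filter. The two-sided test was that of limma 3.58.1 (R 4.3.3; lmFit and eBayes without a covariate), with Benjamini-Hochberg adjustment over all genes and a threshold of 0.05. Members and lists were chosen with earlier results of these data known. All members and other core clock genes were named, and up to 4 passing genes per further list. The fit was tested on simulated data with 20242 genes. It recovered 16.4% of 67 changes of 0.5, 74.6% of 67 changes of 1 and 95.5% of 66 changes of 2 on the log2 scale. Many more genes, 1667, were called in the data, and the adjusted threshold depends on this share, so these rates need not hold there. The alternatives were other normalizations, filters, probe set rules and variance models, array weights, a replicate block, listed age, and leaving out each mouse.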

Additional observations from a re-analysis of the deposited data

How the results depend on the processing

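The number of members that fell was 2 or 3 where arrays were renormalized, filtered, weighted, blocked or left out. It was 0 by limma with fit and adjustment over every probe set, with statistics not moderated and with listed age in the fit. In each of these settings 3 members were lower at an unadjusted p under 0.05. Leaving out Cpt2KO replicate 2 exchanged Per3 for Nfil3. The number that rose was 0 as reported and 1, Nr1d1, with quantile normalization, with genes in the lowest 25% by level dropped and with array weights. Over genes above the median level Nr1d1 was not tested. The count of all genes changed was 1667, against 367 over every probe set (157 up, 210 down), 652 without moderation (388 and 264) and 83 with listed age (35 and 48). Leaving out each mouse gave 1036 to 1305 genes, 538 to 722 up and 477 to 631 down, with 1036 without WT replicate 2 and 1059 without WT replicate 3. Fewer mice and more tests enter some of these by construction, and the cause of the others was not tested.

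Signs turned in genes that did not pass. Clock, at -0.0089, was 0.047 after quantile normalization, 0.015 with centred arrays, 0.051 as the mean of its probe sets, 0.029 with array weights, 0.21 with listed age and -0.079 to 0.073 leaving out each mouse. Arntl2 was 0.012, 0.0027, 0.10, 0.019 and 0.25 in the same settings and -0.084 to 0.052 leaving out each mouse. With listed age Per1 was -0.19, Nr1d2 -0.072 and Rora 0.065. Leaving out each mouse, Npas2 ran from -0.040 to 0.14 and Rorb from -0.039 to 0.049. With the replicate block 1384 genes and 3 members were called. The replicate numbers were not treated as pairs, since deviations from the group means correlated at 0.071, 0.18 and -0.082 between mice of the same number, and Cpt2KO replicate 3 correlated best with WT replicate 1 (0.19). Of the other genes named, Usp2, Bhlhe40, Csnk1e, Insig2, Gys2, Upp2, Tsc22d3, Nr4a1 and Ciart lost their calls in the 3 settings in which the members did, Ciart and Nr4a1 also with quantile normalization and centred arrays, Ciart with the replicate block (adjusted p = 0.0778 by limma) and the mean of its probe sets (0.0579), and Nr4a1 with array weights (0.0522). With a mouse left out, Ciart lost its call in 5 of 6 fits, Nr4a1 in 5 and Csnk1e in 2. Cyp7a1 and Hspb1 lost theirs with listed age alone.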
